A study of Mus musculus with 24 samples.

Results

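RNA of mouse spinal cord on day 14 after spared nerve injury was compared with RNA of sham-operated cord, using 3 input RNA-seq libraries in each group. Of 32884 genes in the deposited table, the 15497 with a mean of at least 0.5 FPKM (fragments per kilobase of transcript, scaled to the library's total) over these 6 libraries were tested. In the injured group the tibial and common peroneal nerves were ligated and cut below the ligature, and the remaining branch was spared. In the sham group the sciatic nerve and its branches were exposed only, and the sham samples are labelled day 3. The study also holds injured cord of days 3 and 7 and m6A-enriched libraries, 24 samples in all. The labels do not give the strain, sex or age of the mice, the spinal segment, the side or the time of day, nor whether a group's libraries are separate mice. All p-values therefore describe library-to-library spread only, and that spread may be technical.

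Cutting a peripheral nerve damages the axons of motor neurons, whose cell bodies lie in the ventral horn, and of sensory neurons, whose cell bodies lie in the dorsal root ganglia outside the cord. Axotomised neurons switch on a regeneration programme led by transcription factors such as ATF3, and microglia around their cell bodies and central terminals proliferate and change their gene expression. The cord is rich in myelin made by oligodendrocytes, and its tissue also runs a circadian clock in which BMAL1 (Arntl) drives Dbp, Nr1d1 and the Per genes through E-boxes.

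Sham library 3 stood apart. On the log2 scale it correlated with the other 5 libraries at 0.927 to 0.936, against 0.980 to 0.988 among those 5, and the first principal component, with 62.5% of the variance, separated it from them. Among 93 abundant genes (200 FPKM and up), ratios between libraries varied by 1.34 to 1.59% within day 14 and between sham libraries 1 and 2 (0.5 times the range from percentile 16 to percentile 84), by 5.79 to 6.85% between those 2 sets, and by 38.6 to 43.4% against sham library 3. FPKM summed to 180340 to 200656 per library, and the read depth is unknown. Counts and list medians are therefore given with all 3 sham libraries and with sham libraries 1 and 2, and the lead genes have a value from each fit. Comparisons with sham libraries 1 and 2 rest on a pair of near-identical libraries, and they carry a high level of Gm23935, a gene with a predicted name, and of Lars2, a mitochondrial leucyl-tRNA synthetase. Lars2 stood at 16.2, 16.5 and 15.5 FPKM on day 14, at 108 FPKM in both of those sham libraries and at 1.11 FPKM in sham library 3. Gm23935 stood at 490, 497 and 483 FPKM on day 14, at 3890 and 3810 FPKM in sham libraries 1 and 2 and at 1.43 FPKM in sham library 3. The part these libraries' differences play in the results below was not tested.

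The cord expressed its own markers. All 17 spinal Hox genes and all 15 motor and cholinergic neuron genes of the lists were among the genes tested. Of the forebrain genes 6 of 9 were below 0.5 FPKM in all 6 libraries, and the list summed to 75.3 to 79.1 FPKM. Of the sensory ganglion genes 7 of 13 were below it, and that list summed to 74.6 to 80.2 FPKM in 5 libraries and to 39.8 FPKM in sham library 3. Of the T cell genes 7 of 9 were below it, with a sum of 1.91 to 3.95 FPKM. The levels of the lists below come from bulk tissue, in which fewer cells of a type and less RNA per cell cannot be told apart.

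Genes known from axotomised neurons were among the 8 that rose on day 14. In a limma-trend fit of log2(FPKM + 0.5) over the 12 input libraries of the 4 groups, 8 genes rose and 0 fell at a Benjamini-Hochberg adjusted p below 0.05. These are 0.0516% and 0% of the genes tested, and 767 genes had an unadjusted p below 0.05, of which 240 were lower. The count of 767 is below a share of 0.05 of the genes tested, the share that no difference would give. Neither that count nor its split by direction is read as a result. The 8 were Sprr1a, Atf3, Anxa10, Ctla2a, Tubb6, Gpr151, S100a11 and Dbp. In each of them all 3 day 14 values lay above all 3 sham values, which held for 12.2% of the genes tested (1887), while 6.14% (952) lay below. The 8 were called from these same values, so that position is not a further result. Folds are on the log2(FPKM + 0.5) scale, which understates the change of low genes.

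Promoter sequences of 4 of these genes are shown because they hold the AP-1 letters TGANTCA, the element bound by dimers of the FOS, JUN and ATF families. They are the 250 bases before the start in RefSeq GRCm38.p6, 5′ to 3′ on the gene's strand, with TGANTCA in capitals (and, in S100a11, also the E-box CACGTG). Sprr1a is shown from chr3:92485882-92486131 (minus strand), S100a11 from chr3:93520246-93520495 (plus strand), Anxa10 from chr8:62123194-62123443 (minus strand) and Ctla2a from chr13:60936567-60936816 (minus strand).
Sprr1a: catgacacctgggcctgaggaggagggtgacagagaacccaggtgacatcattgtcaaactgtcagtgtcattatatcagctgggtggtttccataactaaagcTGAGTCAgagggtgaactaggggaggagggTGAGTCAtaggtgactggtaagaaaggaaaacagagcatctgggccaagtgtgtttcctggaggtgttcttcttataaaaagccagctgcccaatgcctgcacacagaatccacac
S100a11: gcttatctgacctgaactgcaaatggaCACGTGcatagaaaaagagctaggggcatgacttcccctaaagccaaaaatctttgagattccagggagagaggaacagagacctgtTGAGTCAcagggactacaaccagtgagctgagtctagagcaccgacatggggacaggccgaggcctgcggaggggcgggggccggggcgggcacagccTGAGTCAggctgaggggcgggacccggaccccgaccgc
Anxa10: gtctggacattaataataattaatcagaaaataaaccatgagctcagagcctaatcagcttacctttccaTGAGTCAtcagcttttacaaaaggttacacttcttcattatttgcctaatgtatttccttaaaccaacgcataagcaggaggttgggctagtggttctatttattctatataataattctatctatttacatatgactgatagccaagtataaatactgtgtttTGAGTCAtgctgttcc
Ctla2a: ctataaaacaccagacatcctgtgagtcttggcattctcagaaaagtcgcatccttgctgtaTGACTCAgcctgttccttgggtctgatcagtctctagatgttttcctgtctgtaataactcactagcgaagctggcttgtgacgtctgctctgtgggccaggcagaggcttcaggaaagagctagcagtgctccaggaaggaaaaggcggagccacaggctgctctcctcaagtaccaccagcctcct
The letters lie 146 and 116 bases before the start in Sprr1a, 136 and 38 bases in S100a11, and 180 and 16 bases in Anxa10. Ctla2a has 2 listed starts, and the letters lie 188 bases before the one shown and 129 bases before the other. Of the 8 genes 6 had an entry among the promoters. Of these 6, 4 held TGANTCA on either strand in the window of 300 bases from 250 before to 50 after the start. Neither Atf3 nor Dbp held it there. The share was 6.03% of the 10873 tested genes with a promoter and 8.97% of all 27025 genes with a promoter. In the 10-library fit described below it was 7.97% of the 276 higher and 9.77% of the 256 lower genes with a promoter. In that fit the letters were no more common among higher than among lower genes. In the injured neuron list below, which shares genes with these 8, the share was 14.3% of 21 genes. A match of letters is a description and not a binding site.

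Sprr1a, a small proline-rich protein that promotes axon outgrowth, had the largest difference. It stood at 36.3, 32.6 and 38.4 FPKM on day 14 and at 0.416, 0.158 and 1.57 FPKM in sham. The day 14 values lay far above all sham values, and sham library 3 was the highest of the sham libraries. The log2 fold change was 5.07 ± 0.32 (SE, limma adjusted p = 8.39e-05) and 5.54 ± 0.12 without sham library 3 and day 7 library 3 (adjusted p = 7.07e-08).

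Atf3, a transcription factor switched on by axon damage, stood at 5.97, 5.32 and 6.20 FPKM on day 14 and at 0.353, 0.329 and 0.585 FPKM in sham. It rose by a log2 fold change of 2.79 ± 0.13 (limma adjusted p = 1.46e-05), or 2.91 ± 0.06 without the pair of outlying libraries (adjusted p = 6.76e-08). Tubb6, a beta tubulin induced in injured neurons, stood at 2.99, 3.53 and 3.06 FPKM against 1.06, 0.787 and 0.646 FPKM in sham. Its log2 fold change was 1.48 ± 0.19 (limma adjusted p = 0.0247). Without sham library 3 alone Tubb6 missed the threshold (1.38, adjusted p = 0.0516).

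Gpr151, an orphan receptor of injured sensory neurons and habenula, was low throughout. It stood at 1.05, 1.27 and 0.773 FPKM on day 14 and at 0.240, 0.142 and 0.0993 FPKM in sham (log2 1.21 ± 0.15, limma adjusted p = 0.0241, and 1.14 ± 0.16 without the pair of outlying libraries, adjusted p = 0.00651). Gal, the neuropeptide galanin, stood at 13.8, 15.3 and 12.8 FPKM against 4.77, 5.53 and 1.62 FPKM. Its 3 sham values were spread widely, and it passed without the pair of outlying libraries (log2 1.35 ± 0.10, limma adjusted p = 0.00022) but not with them (1.82, adjusted p = 0.361).

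Anxa10, an annexin, a calcium-dependent membrane-binding protein, stood at 1.49, 1.43 and 1.64 FPKM on day 14 and at 0, 0.0638 and 0.161 FPKM in sham. It was nearly absent from sham cord (log2 1.82 ± 0.15, limma adjusted p = 0.000696, and 1.93 ± 0.11 without the outlying pair, adjusted p = 3.79e-05). S100a11, a calcium-binding protein that partners annexins, stood at 11.7, 10.3 and 9.93 FPKM against 4.40, 4.57 and 4.77 FPKM (log2 1.13 ± 0.08, limma adjusted p = 0.000116, and 1.16 ± 0.07 without the pair, adjusted p = 4.02e-05). Ctla2a, a cysteine protease inhibitor of the endothelial list, stood at 5.51, 6.26 and 5.65 FPKM against 1.75, 1.79 and 1.36 FPKM (log2 1.57 ± 0.10, limma adjusted p = 8.39e-05, and 1.47 ± 0.07 without the pair, adjusted p = 1.36e-05). For S100a11 and Ctla2a the 3 sham values lay within a narrow range. For Anxa10 they lay near 0, with sham library 3 the highest.

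Dbp, a clock-controlled transcription factor, stood at 11.7, 12.8 and 12.7 FPKM on day 14 and at 6.45, 5.28 and 5.93 FPKM in sham (log2 1.01 ± 0.11, limma adjusted p = 0.00924, and 1.02 ± 0.08 without the outlying pair, adjusted p = 0.000251). In the gene table Sprr1a spans 92483952 to 92485895 of chromosome 3, Atf3 191170296 to 191218039 of chromosome 1, Anxa10 62057042 to 62123150 of chromosome 8 and Ctla2a 60934155 to 60936625 of chromosome 13. Tubb6 spans 67390717 to 67402749 and Gpr151 42577881 to 42579652 of chromosome 18, S100a11 93520488 to 93526287 of chromosome 3 and Dbp 45705088 to 45710203 of chromosome 7. The genome build of these coordinates is not stated.

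**Figure D1:**
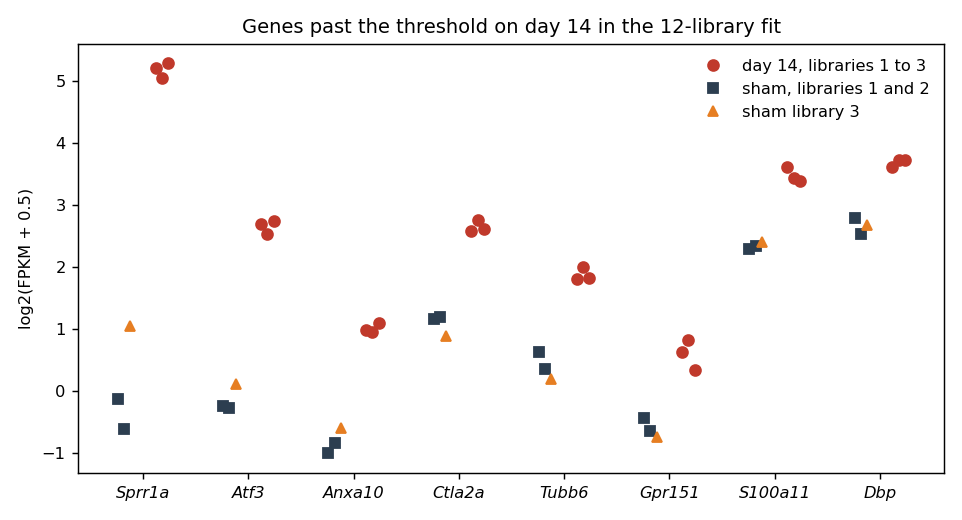
Level of the 8 genes in each of the 6 libraries, as log2(FPKM + 0.5); circles are day 14, squares sham libraries 1 and 2, triangles sham library 3. In all 8 genes the day 14 libraries lie above every sham library.

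The number of genes called depended on which libraries were left out. Without sham library 3 alone 13 genes rose (0.0839%) and 8 fell (0.0516%), with 7 of the 8 among them. Without sham library 3 and day 7 library 3, 376 genes were higher (2.43%) and 361 lower (2.33%), all 8 among them. The sizes were small, with a median log2 fold change of 0.19 for the higher and -0.24 for the lower genes, and 18 higher and 16 lower genes reached 1 on that scale. Sham library 3 went against many of these calls. Against sham library 3 alone, 120 of the 376 higher genes were lower on day 14, and 181 of the 361 lower genes were higher. All 3 day 14 values lay above all 3 sham values in 249 of the 376, and below in 163 of the 361. Everything reported below as a call without the outlying libraries, here called the 10-library fit, is to be read with these counts. Every list count below is also to be read beside the shares over all genes. In the 10-library fit these were 2.43% higher and 2.33% lower, and 12.2% lay above and 6.14% below every sham library. The lists were chosen with earlier results of these data known, so their counts are descriptions. None of the other 111 gene entries named here passed in the 12-library limma fit, where their adjusted p ran from 0.062 to 0.99.

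**Figure D2:**
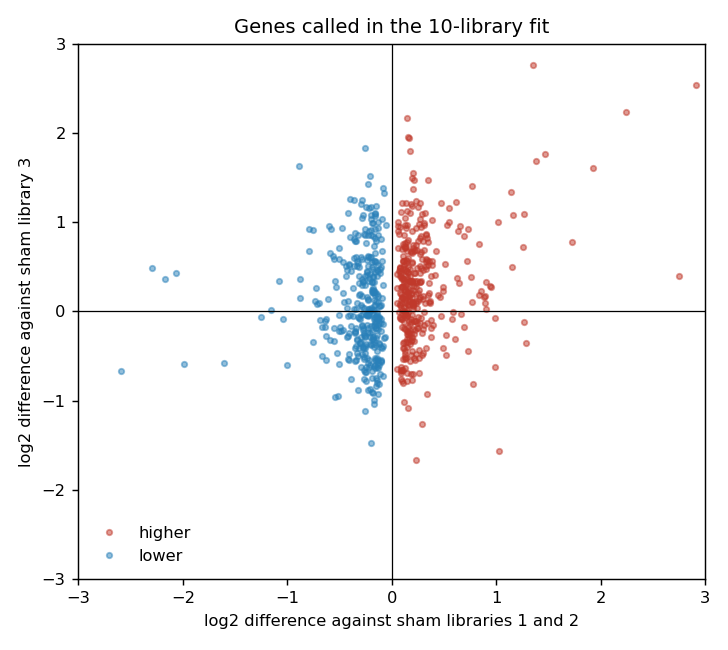
Log2 difference of day 14 from sham libraries 1 and 2 (horizontal) and from sham library 3 alone (vertical) for the 737 genes called in the 10-library fit; red higher, blue lower, each point a gene, with 6 points outside the axes. Both axes share the day 14 libraries. The 120 red points below the horizontal line and the 181 blue points above it are genes for which sham library 3 gave the opposite sign.

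Among the 25 injured neuron genes tested, 9 were higher and 0 lower in the 10-library fit, against 2.43% and 2.33% of all genes, and 5 passed in the 12-library fit. The list was chosen with earlier results of these data known, so these counts describe it and do not test it. Anxa10 is in this list and also in the S100 and annexin list. The list median was a log2 of 0.23 with all 3 sham libraries and 0.15 without the third, against 0.031 and 0.021 over all genes. Ecel1, a peptidase induced in damaged neurons, stood at 16.1, 16.9 and 17.0 FPKM against 12, 11.8 and 6.88 FPKM in sham (10-library limma log2 0.47 ± 0.03, adjusted p = 8.6e-05). Gap43, the growth cone protein, which was chosen after its values were seen, stood at 99.4, 98.8 and 98.5 FPKM against 78.3, 79.0 and 65.4 FPKM (0.33 ± 0.03, adjusted p = 0.000251). For both genes all day 14 values lay above all sham values, and their 12-library log2 fold changes were 0.72 for Ecel1 (adjusted p = 0.699) and 0.42 for Gap43 (adjusted p = 0.231).

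Of 18 S100 and annexin genes 4 were higher and 2 lower in the 10-library limma fit, against 2.43% and 2.33% of all genes, and 2 passed in the 12-library fit, Anxa10 and S100a11. Anxa2 (0.30, adjusted p = 0.0118) and S100a10 (0.27, adjusted p = 0.0434), which bind each other, were higher, and S100a9 (-0.52, adjusted p = 0.0405) and S100a16 (-0.16, adjusted p = 0.0149) lower; for S100a16 sham library 3 lay below day 14.

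Some neuropeptides and receptors of trophic factors were also called in the 10-library fit. Npy, neuropeptide Y, stood at 30.6, 33.5 and 34.8 FPKM on day 14 and at 20.1, 18.1 and 12.1 FPKM in sham (10-library limma log2 0.77 ± 0.08, adjusted p = 0.00107). Penk, the enkephalin precursor, was higher by 0.17 ± 0.02 (adjusted p = 0.00566) with no overlap between the groups. Calcb, the beta form of calcitonin gene-related peptide, was lower by 10-library log2 -0.51 ± 0.09 (adjusted p = 0.0212), but sham library 3, at 3.34 FPKM, lay below the day 14 values of 5.19 to 6.28 FPKM. Of 25 neuropeptide genes tested 3 were higher and 1 lower, against 2.43% and 2.33% of all genes. Gfra1 (0.37 ± 0.03, adjusted p = 0.000251) and Ret (0.17 ± 0.03, adjusted p = 0.0218), which form the receptor of glial cell line-derived neurotrophic factor, were 2 of 10 neurotrophin genes higher in the 10-library fit and did not overlap between groups. The 12-library log2 of Npy was 0.98. None of these genes passed in the 12-library limma fit, where adjusted p ranged from 0.272 for Npy to 0.898 for Calcb.

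Some motor and cholinergic genes were lower in the 10-library fit. Of 15 genes 0 were higher and 6 lower, against 2.43% and 2.33% of all genes. The median was -0.15 without sham library 3 but 0.062 with it. The 6 were Nefm, Nefl and Nefh, the neurofilament subunits, Slc5a7, the choline transporter, Chat, the enzyme that makes acetylcholine, and Chodl, a marker of fast motor neurons. Slc5a7 stood at 11.8, 12.1 and 12 FPKM against 15, 13.9 and 15.8 FPKM in sham (10-library limma log2 -0.26 ± 0.04, adjusted p = 0.0124), and Nefh at 357, 359 and 357 FPKM against 400, 394 and 465 FPKM (-0.15 ± 0.01, adjusted p = 0.000496). These 2 were below every sham library, and their 12-library log2 values were -0.30 for Slc5a7 (adjusted p = 0.39) and -0.23 for Nefh (adjusted p = 0.699). The other 4 stood above sham library 3 on day 14. Chat, for one, stood at 6.35, 6.43 and 6.75 FPKM against 7.52, 7.78 and 3.25 FPKM. Of 24 sodium and calcium channel genes Scn9a, the Nav1.7 channel (log2 0.47, adjusted p = 0.032), and Cacna2d1, the gabapentin-binding subunit (0.21, adjusted p = 0.0142), were higher in the 10-library fit. The higher share over all genes was 2.43%. Sham library 3 exceeded all 3 day 14 values for Cacna2d1, and lay among the day 14 values for Scn9a.

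Some microglial and complement transcripts were higher in the 10-library fit. Of 14 homeostatic microglia genes 3 were higher and 0 lower, of 18 activation genes 5 and 0, and of 8 complement genes 3 and 0. The shares over all genes were 2.43% higher and 2.33% lower. The medians without sham library 3 were 0.17, 0.14 and 0.16, and none of the 3 lists had a call in the 12-library fit or without sham library 3 alone. Ctss, a lysosomal protease of microglia, stood at 52.1, 52.2 and 49.9 FPKM against 37.4, 35.7 and 42.4 FPKM in sham (10-library limma log2 0.49 ± 0.04, adjusted p = 0.000289). C1qb, a chain of the complement starter C1q, stood at 31.7, 32.2 and 30.9 FPKM against 25.3, 26.5 and 17.3 FPKM (0.28 ± 0.03, adjusted p = 0.00092). In both genes all day 14 values lay above all sham values, and the 12-library log2 values were 0.41 for Ctss and 0.47 for C1qb (adjusted p = 0.697 for both).

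Ly86, an MD-1 protein that binds RP105 on myeloid cells, stood at 3.31, 3.43 and 3.31 FPKM against 2.06, 2.28 and 1.46 FPKM (10-library limma log2 0.53 ± 0.08, adjusted p = 0.01). Tmem119, a marker of resident microglia, was higher by 0.36 ± 0.06 (adjusted p = 0.0112), C1qa by 0.32 ± 0.05 (adjusted p = 0.0142) and C1qc by 0.28 ± 0.03 (adjusted p = 0.00372). In the 12-library limma fit the log2 of Ly86 was 0.68 (adjusted p = 0.245) and that of Tmem119 0.42 (adjusted p = 0.337). Apoe, Laptm5, Itgam and Csf1r, the receptor that keeps microglia alive, were higher by 0.13 to 0.29, with adjusted p of 0.0139 to 0.0203. Each of these genes lay above all sham libraries on day 14. Of 21 lysosomal genes 6 were higher, 1 was lower and 14 were not called in the 10-library limma fit, and 0 were called in the 12-library fit. The higher genes included the cathepsins Ctsb (0.12 ± 0.01, adjusted p = 0.00304) and Ctsd (0.15 ± 0.02, adjusted p = 0.00332). In chemokines and cytokines 1 gene of 6 tested was called, Cx3cl1, the neuronal ligand of the microglial fractalkine receptor, lower by log2 -0.16 ± 0.02 in the 10-library fit (adjusted p = 0.00943), while sham library 3 lay below day 14.

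The oligodendrocyte lineage was lower against sham libraries 1 and 2. Of 16 myelin genes 0 were higher and 14 lower in the 10-library fit, and of 14 precursor genes 0 and 5. Over all genes 2.43% were higher and 2.33% lower. The myelin median was -0.25 without sham library 3, -0.13 with all 3 sham libraries and 0.23 against sham library 3 alone. Mal, a myelin membrane protein, stood at 175, 173 and 176 FPKM on day 14 and at 222, 224 and 258 FPKM in sham (10-library limma log2 -0.35 ± 0.01, adjusted p = 2.15e-06), and Gjc3, a glial connexin, at 30.5, 31.2 and 30.6 FPKM against 42.0, 40.7 and 44.9 FPKM (-0.42 ± 0.02, adjusted p = 1.45e-05). Mbp, myelin basic protein, stood at 1560, 1570 and 1570 FPKM against 1840, 1840 and 1790 FPKM (-0.23 ± 0.01, adjusted p = 9.12e-07). Day 14 lay below every sham library for these 3 genes. Their 12-library log2 values were -0.42 for Mal (adjusted p = 0.292), -0.46 for Gjc3 (adjusted p = 0.394) and -0.22 for Mbp (adjusted p = 0.441), and that of Mbp turned to 0.34 under quantile scaling.

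For other myelin genes the sham libraries did not hold together. Ugt8a, which makes galactocerebroside, stood at 44.3, 46.1 and 45 FPKM against 70.3, 67.7 and 40.9 FPKM (10-library limma log2 -0.61 ± 0.02, adjusted p = 2.43e-06). Mog, a myelin surface protein, was lower by log2 -0.28 ± 0.01 (adjusted p = 2.13e-05), with 100 FPKM in sham library 3 against 124 to 128 FPKM on day 14. In both genes day 14 lay between sham libraries 1 and 2 and sham library 3.

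Among the precursor genes Olig2, the lineage transcription factor, stood at 14.8, 14.5 and 14.2 FPKM against 22.5, 20.5 and 18.4 FPKM in sham (10-library limma log2 -0.55 ± 0.04, adjusted p = 0.000251), and Enpp6, of newly forming oligodendrocytes, was lower by -0.35 ± 0.05 (adjusted p = 0.00861). Both were below every sham library, and the 12-library log2 of Olig2 was -0.48 (adjusted p = 0.156). Gpr17, a receptor of committed precursors, stood at 12.5, 12.6 and 12.7 FPKM against 23.9, 23.1 and 9.66 FPKM (-0.88 ± 0.02, adjusted p = 2.58e-07), and Olig1 at 65.2, 66.3 and 66.6 FPKM against 79.5, 79.8 and 36.0 FPKM (-0.27 ± 0.03, adjusted p = 0.00255). For Gpr17, Olig1 and Neu4, a sialidase (-0.31 ± 0.06, adjusted p = 0.0314), sham library 3 lay below day 14.

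Astrocyte genes were called both higher and lower. Of 14 identity genes 3 were higher and 3 lower in the 10-library fit, with medians of 0 without sham library 3 and -0.15 with it. Aqp4, the water channel of astrocyte endfeet, stood at 75.4, 76.2 and 76.9 FPKM against 92.2, 92.2 and 101 FPKM (10-library limma log2 -0.27 ± 0.01, adjusted p = 2.68e-05), and Kcnj10, the Kir4.1 potassium channel, was lower by -0.16 ± 0.02 (adjusted p = 0.00188), both below every sham library. Gja1, the connexin of astrocytes, was lower by -0.10 ± 0.02 (adjusted p = 0.025), while Aldoc (0.11, adjusted p = 0.000573), Glul, glutamine synthetase (0.09, adjusted p = 0.00257), and Agt (0.10, adjusted p = 0.0352) were higher. Sham library 3 exceeded day 14 for Glul and Agt. Serpina3n, a serine protease inhibitor of reactive astrocytes, stood at 33.3, 35.0 and 35.9 FPKM against 26.0, 26.8 and 24.1 FPKM (0.39 ± 0.03, adjusted p = 0.000595). In the 12-library limma fit the log2 values were -0.32 for Aqp4 (adjusted p = 0.699) and 0.43 for Serpina3n (adjusted p = 0.575). Gfap, the intermediate filament of astrocytes, was not higher. It stood at 295, 299 and 304 FPKM against 344, 338 and 296 FPKM and was lower by -0.19 ± 0.01 in the 10-library fit (adjusted p = 0.000167), with sham library 3 within the day 14 range.

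Of the 16 endothelial genes Ctla2a rose, while 3 were lower in the 10-library fit. These were Ly6c1, a surface protein (log2 -0.29 ± 0.04, adjusted p = 0.00479), Cldn5, the tight-junction claudin (-0.23 ± 0.04, adjusted p = 0.0142), and Kdr, the main receptor of vascular endothelial growth factor (-0.46 ± 0.08, adjusted p = 0.0196). For Ly6c1 and Cldn5 sham library 3 lay below every day 14 library, and for Kdr it stood at 1.80 FPKM against 1.80 to 2.07 FPKM on day 14. Some red cell transcripts were higher in the 10-library fit. Hbb-bs, adult beta globin, stood at 121, 123 and 123 FPKM against 67.7, 64.5 and 110 FPKM in sham (0.89 ± 0.07, adjusted p = 0.000251), and of 7 erythroid genes tested 5 were higher, the others being Hba-a1, Hba-a2, Hbb-bt and Alas2, the erythroid enzyme of haem synthesis. The globins lay above every sham library, while Alas2 overlapped, with 1.27 FPKM in sham library 3 against 1.06 to 1.35 FPKM on day 14. None of the 5 passed in the 12-library limma fit (adjusted p = 0.441 to 0.699), where Hbb-bs had a log2 of 0.64. The globin copies share sequence, so the split between them is uncertain. The summed level of the erythroid list was 391.7 to 406.3 FPKM on day 14 and 226.7 to 343.9 FPKM in sham, and its part in the other differences was not tested.

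Several clock genes were higher against sham libraries 1 and 2. Of 19 genes 10 were higher and 1 was lower in the 10-library fit, against 2.43% and 2.33% of all genes. The median was 0.15 without sham library 3, 0.11 with it and -0.10 against that library alone. Nr1d1, the repressor REV-ERB alpha, stood at 21.1, 20.5 and 22.5 FPKM on day 14 and at 12.2, 13.4 and 14.2 FPKM in sham (10-library limma log2 0.72 ± 0.05, adjusted p = 0.000121, and 0.062 in the 12-library fit). Ciart, a clock repressor, stood at 5.03, 4.76 and 5.58 FPKM against 3.11, 3.04 and 2.40 FPKM (0.65 ± 0.11, adjusted p = 0.0138), and Per1 at 7.41, 8.14 and 8.51 FPKM against 6.16, 6.53 and 3.47 FPKM (0.31 ± 0.06, adjusted p = 0.0192). All 3 lay above every sham library, as did Dbp, and the 12-library log2 values were 0.75 for Ciart (adjusted p = 0.194) and 0.58 for Per1 (adjusted p = 0.699).

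The single lower clock gene, Arntl, which encodes BMAL1 and was chosen after its values were seen, stood at 1.81, 1.92 and 1.76 FPKM against 2.48, 2.38 and 2.72 FPKM (10-library limma log2 -0.33 ± 0.06, adjusted p = 0.0256). It lay below every sham library, with a 12-library log2 of -0.38 (adjusted p = 0.668). Nr1d2 and Tef were higher by 0.29 ± 0.02 (adjusted p = 0.000388) and 0.22 ± 0.03 (adjusted p = 0.00359) in the 10-library fit, but sham library 3 exceeded day 14 for both. The sampling time is not given, so time of day and injury cannot be told apart here. The promoter of Ciart is shown because it holds the E-box CACGTG 3 times, at 116, 58 and 44 bases before the start (RefSeq GRCm38.p6, chr3:95882229-95882478, minus strand, E-boxes in capitals).
Ciart: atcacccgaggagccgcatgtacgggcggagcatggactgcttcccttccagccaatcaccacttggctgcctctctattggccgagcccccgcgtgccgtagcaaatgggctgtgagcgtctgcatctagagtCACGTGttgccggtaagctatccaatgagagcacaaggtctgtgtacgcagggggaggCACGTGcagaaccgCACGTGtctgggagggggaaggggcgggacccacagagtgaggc
Of the 9 higher clock genes with a listed promoter, 4 held CACGTG in the window of 300 bases. The share was 11.5% of the tested genes with a promoter and 8.09% of all genes with a promoter. The windows of Dbp and Nr1d1 held none, which says only that these letters are not there.

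Glucocorticoid-responsive and metallothionein genes included 4 of 15 that were higher and 0 lower in the 10-library fit, against 2.43% and 2.33% of all genes. The list median was 0.20 without sham library 3, 0.14 with it and -0.08 against that library alone. Sgk1, a kinase induced by glucocorticoids, stood at 14.3, 13.5 and 14.3 FPKM against 7.08, 6.94 and 11.5 FPKM in sham (10-library limma log2 0.95 ± 0.03, adjusted p = 1.8e-06). Mt2, a metal-binding protein, stood at 249, 244 and 245 FPKM against 203, 204 and 195 FPKM (0.27 ± 0.01, adjusted p = 1.36e-05), and its relative Mt1 was higher by 0.20 ± 0.02 (adjusted p = 0.00359). In all 3 genes day 14 was above every sham library. The 12-library log2 values were 0.72 for Sgk1 (adjusted p = 0.699) and 0.29 for Mt2 (adjusted p = 0.231).

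Several heat shock and endoplasmic reticulum chaperones were lower in the 10-library fit. Of 19 genes 0 were higher, 11 lower and 8 not called, against 2.43% higher and 2.33% lower over all genes. None was called in the 12-library fit. Of the 19, 8 lay below every sham library, against 6.14% of all genes. The median was -0.20 without sham library 3, -0.15 with it and 0.016 against that library alone. Hspa5, the reticulum chaperone BiP, stood at 40.3, 38.0 and 38.3 FPKM against 54.6, 56.0 and 58.6 FPKM (10-library limma log2 -0.50 ± 0.03, adjusted p = 8.6e-05). Calr, calreticulin, stood at 91.4, 92.2 and 91.1 FPKM against 122, 119 and 102 FPKM (-0.39 ± 0.02, adjusted p = 6.27e-06), and Hsp90b1, GRP94, at 69.7, 69.1 and 70.1 FPKM against 88.7, 88.0 and 102 FPKM (-0.34 ± 0.02, adjusted p = 1.9e-05). These 3 chaperones were below every sham library, with 12-library log2 values of -0.53 for Hspa5, -0.32 for Calr and -0.41 for Hsp90b1 (adjusted p = 0.699 for each).

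Hspa1b, the inducible HSP70, stood at 1.58, 1.84 and 1.58 FPKM against 3.31, 4.44 and 2.78 FPKM (10-library limma log2 -1.0 ± 0.16, adjusted p = 0.0114), also below every sham library (12-library log2 -0.87, adjusted p = 0.234). For Hspa1b that position was a condition of naming and is not a further result. Cryab, a small heat shock protein, and Sdf2l1, a reticulum cofactor, were lower against sham libraries 1 and 2 by -0.31 and -0.79, with sham library 3 below day 14 for both. The same held for Hsp90ab1, a cytosolic chaperone (-0.09).

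Several sterol synthesis genes were lower in the 10-library fit. Of 18 genes 0 were higher, 10 lower and 8 not called, against 2.43% higher and 2.33% lower over all genes. None was called in the 12-library fit. Of the 18, 7 lay below every sham library, against 6.14% of all genes, while 11 overlapped the sham values. The median was -0.20 without sham library 3, -0.016 with it and 0.26 against that library alone. Hmgcs1, the synthase that feeds the pathway, stood at 93.2, 93.8 and 92.7 FPKM against 120, 117 and 106 FPKM (10-library limma log2 -0.34 ± 0.02, adjusted p = 1.24e-05). Cyp51, the lanosterol demethylase, stood at 29.1, 29.8 and 29.4 FPKM against 34.8, 36.5 and 33.6 FPKM (-0.27 ± 0.04, adjusted p = 0.00434). Their 12-library log2 values were -0.29 for Hmgcs1 (adjusted p = 0.329) and -0.24 for Cyp51 (adjusted p = 0.544). Both lay below every sham library, as did Msmo1 (10-library log2 -0.24 ± 0.03, adjusted p = 0.0029) and Sqle (-0.23 ± 0.03, adjusted p = 0.00356).

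Interferon response genes had a list median of -0.61 without sham library 3, against -0.27 with it and 0.11 against that library alone. Of 20 genes 0 were higher and 13 lower in the 10-library fit, against 2.43% and 2.33% of all genes. In the list 4 lay below every sham library, against 6.14% of all genes, and 2 passed without sham library 3 alone. Ifit1, an inhibitor of viral translation, stood at 1.58, 1.87 and 1.57 FPKM on day 14 and at 4.23, 4.42 and 1.65 FPKM in sham (10-library limma log2 -1.15 ± 0.08, adjusted p = 0.000146). Ifit3 stood at 7.19, 7.88 and 7.18 FPKM against 13.5, 14.7 and 6.64 FPKM (-0.88 ± 0.05, adjusted p = 3.79e-05). Sham library 3 stood with or below the day 14 libraries for both genes, and sham libraries 1 and 2 stood alone at the top. The 12-library log2 values were -0.77 for Ifit1 and -0.54 for Ifit3 (adjusted p = 0.699 for both).

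Bst2, the tetherin that holds viruses at the membrane, stood at 4.38, 3.62 and 3.88 FPKM against 7.10, 7.30 and 1.84 FPKM, and the guanylate-binding protein Gbp3 was lower by -0.70 ± 0.08 (adjusted p = 0.0032) with sham library 3 within the day 14 range. Trim30a and Oasl2 lay below every sham library, at -0.55 ± 0.07 (adjusted p = 0.00477) and -0.63 ± 0.09 (adjusted p = 0.00663). The interferon-induced Slfn5, Slfn2, Sp100 and Gbp7 were lower by log2 values of -0.50 to -0.67. They were named from the genes called without the outlying libraries that lay below every sham library. That position was a condition of naming and is not a further result. With all libraries in the fit their limma adjusted p was 0.685 to 0.699. None passed without sham library 3 alone, where the lowest adjusted p was 0.23 for Gbp7.

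**Figure D3:**
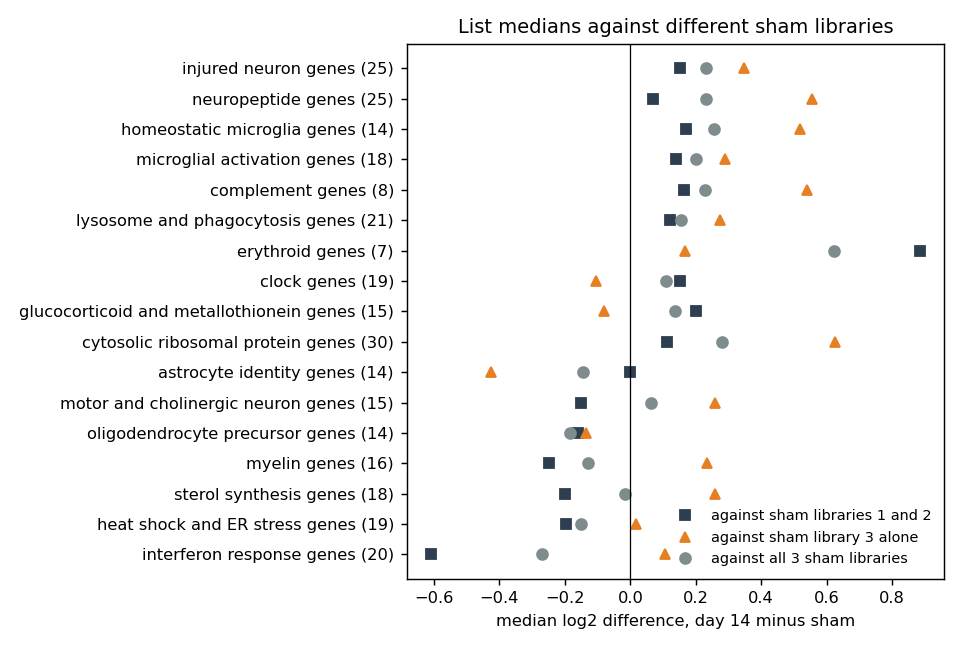
Median log2 difference of day 14 from sham for 17 gene lists (number of genes tested in brackets), against sham libraries 1 and 2 (squares), all 3 sham libraries (circles) and sham library 3 alone (triangles). Myelin, sterol, motor neuron, heat shock and interferon medians are below 0 against libraries 1 and 2 and above 0 against library 3. Clock and glucocorticoid medians are above 0 against libraries 1 and 2 and below 0 against library 3.

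**Figure D4:**
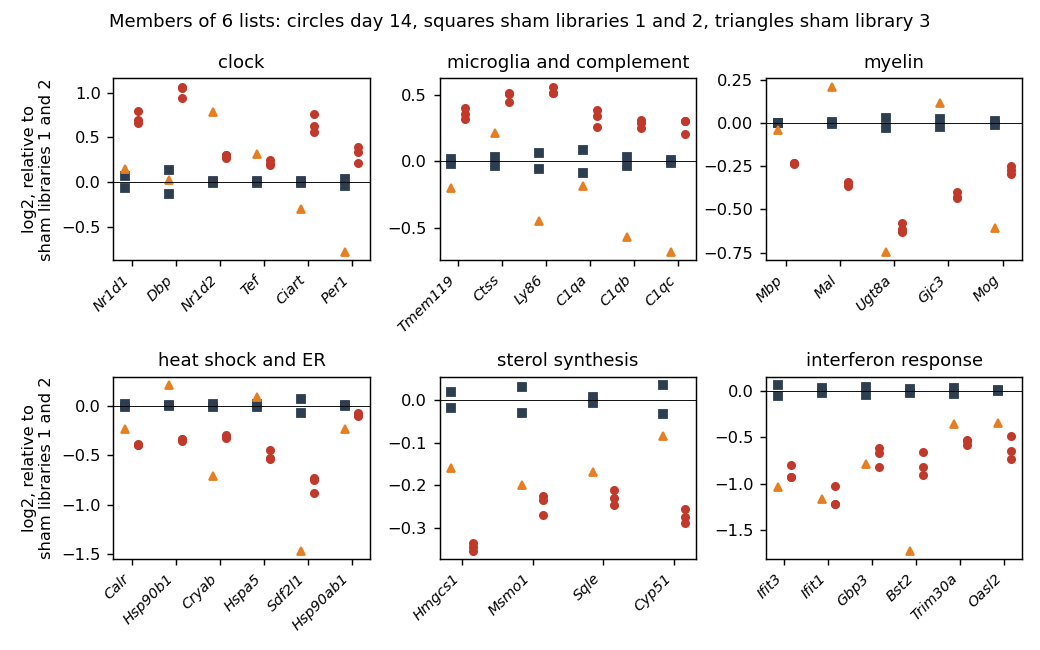
Log2(FPKM + 0.5) of up to 6 genes from each of 6 lists in every library, relative to the mean of sham libraries 1 and 2; circles day 14, squares sham libraries 1 and 2, triangles sham library 3. The day 14 libraries sit close together, and the triangles lie on either side of them, as for Mog and Mal.

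Ribosomal protein genes showed 11 of 30 higher and 0 lower in the 10-library fit, against 2.43% and 2.33% of all genes. Their median was 0.11 without and 0.28 with sham library 3, in which they were lowest, with a summed 1816 FPKM against 2690 to 3012 FPKM in the other 5 libraries. Rpl13a stood at 119, 115 and 118 FPKM against 102, 99.9 and 86.7 FPKM (10-library limma log2 0.21 ± 0.02, adjusted p = 0.000726), and Rplp1 at 400, 383 and 394 FPKM against 345, 362 and 87.1 FPKM (0.15 ± 0.02, adjusted p = 0.0115).

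Other lists had a single call or a few in the 10-library limma fit, and not all are named here. Of 22 collagen and matrix genes 1 was higher and 6 were lower, with a median of -0.11 without sham library 3 and 0.07 with it. Of 17 tubulin genes 3 were higher and 1 was lower. Tubb3 (0.10, adjusted p = 0.00434) and Stmn2 (0.12, adjusted p = 0.00701), of neuronal microtubules, were higher beside Tubb6. B2m, a subunit of class I molecules (0.18, adjusted p = 0.0395), Fcgr3, an antibody receptor (0.37, adjusted p = 0.0129), and Ptgds, a prostaglandin synthase of the meninges (0.20, adjusted p = 0.000656), were higher, with sham library 3 above day 14 for all 3. Arc, an immediate early gene (-0.26, adjusted p = 0.0259), was lower with sham library 3 below day 14. Slc12a2, a chloride importer (-0.17, adjusted p = 0.011), and Hoxc6 (-0.39, adjusted p = 0.0254) were lower than in every sham library.

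Some large differences have features that limit them. Nnt, a mitochondrial transhydrogenase, appears under 2 gene identifiers that went opposite ways. ENSMUSG00000025453 stood at 0.525, 1.28 and 1.28 FPKM against 3.93, 4.07 and 1.71 FPKM in sham, and ENSMUSG00000116207 at 2.93, 1.36 and 1.57 FPKM while listed at 0 in all 3 sham libraries. How reads were divided between them is uncertain. CT010467, an unnamed sequence, stood at 3.75, 3.89 and 4.52 FPKM against 27.0, 26.8 and 6.75 FPKM, and Erdr1 at 10.2, 9.53 and 7.14 FPKM against 0.178, 2.36 and 6.59 FPKM. Cyp1b1, a cytochrome P450 (1.15, adjusted p = 0.00767), and Mettl7a3 (1.26, adjusted p = 0.00372) were higher in the 10-library limma fit. In the same fit mt-Rnr2, the mitochondrial large ribosomal RNA (-0.54, adjusted p = 0.000656), H2-T24 (-0.75, adjusted p = 0.0465) and Zfp991 (-0.63, adjusted p = 0.0434) were lower. The 10-library call and separate groups were conditions of naming the genes of this paragraph and are not further results. For CT010467 and Erdr1 the sham libraries differed among themselves by more than sham library 3 differed from day 14.

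Day 14 was set against the other injured days in the same fits. In the 12-library limma fit 2 genes were higher (0.0129%) and 1 lower (0.00645%) on day 14 than on day 3, and 2 were higher (0.0129%) and 3 lower (0.0194%) than on day 7. In the 10-library fit the counts were 142 higher (0.916%) and 159 lower (1.03%) against day 3, and 169 higher (1.09%) and 249 lower (1.61%) against day 7. Anxa10 was at 0.145 FPKM on average on day 3, at 1.22 FPKM on day 7 and at 1.52 FPKM on day 14. Ctla2a stood at 2.87, 3.18 and 5.81 FPKM on average on days 3, 7 and 14, so it was highest on day 14. Sprr1a stood at 15.2, 33.2 and 35.8 FPKM, and Atf3 at 6.27, 8.75 and 5.83 FPKM, on the same days. S100a9, a calcium-binding protein of neutrophils, stood at 4.42, 6.12 and 1.70 FPKM and was lowest on day 14.

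**Figure D5:**
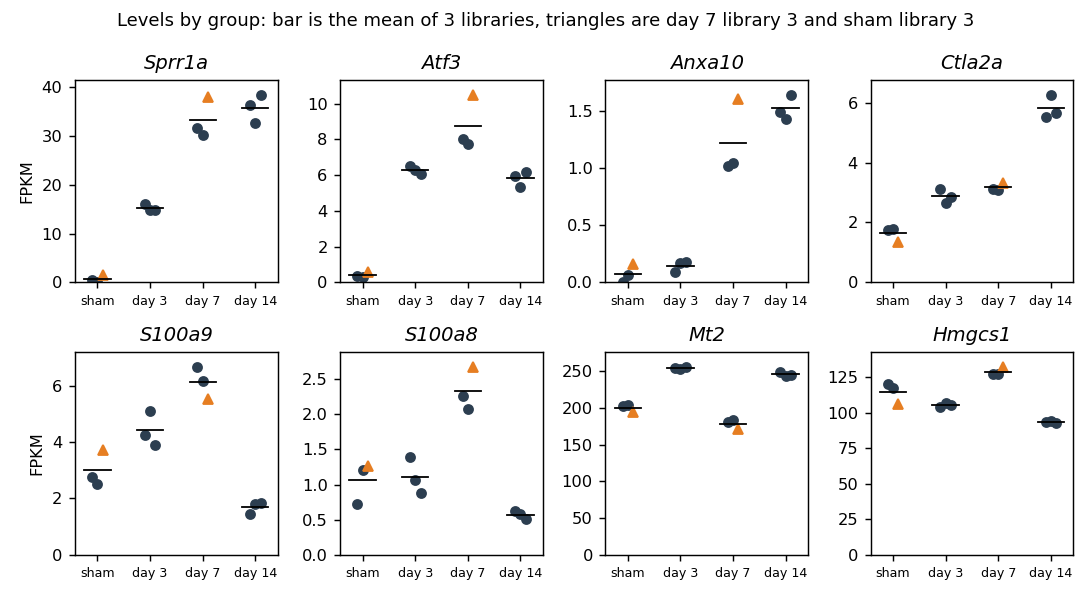
FPKM of 8 genes in each of the 3 libraries of sham and of days 3, 7 and 14, with bars at the means; triangles mark sham library 3 and day 7 library 3, which stood apart. Ctla2a is highest on day 14, and S100a9 and S100a8 are lowest there.

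The m6A peak lists give another readout of the same groups, 1 list per group. At least 1 peak lay in 78.0% of all tested genes on day 14 and in 68.0% in sham. Among the 376 higher genes the shares were 80.3% and 67.6%, and among the 361 lower genes 83.9% and 69.5%. Median levels differed between these sets, at 17.6 FPKM for the higher genes, 12.1 FPKM for the lower and 4.52 FPKM for all tested. The part of level in these shares was not tested. The day 14 share was the higher one in all 3 sets. Sprr1a, Anxa10 and S100a11 each had 1 peak on day 14 and 0 in sham, Atf3 had 0 and 1, and Ctla2a had none in either list. The deposited log10 p was -334 for the Sprr1a peak and -26.5 for the S100a11 peak, but -1.89 for Anxa10 and -3.93 for Atf3. The Anxa10 and Atf3 peaks miss the strict threshold of a p of at most 1e-05. In sham RNA Sprr1a reached at most 1.57 FPKM and Anxa10 at most 0.161 FPKM.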

How the data were processed

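Input RNA libraries of day 14 and sham mouse spinal cord (3 each) were compared, with the day 3 and day 7 inputs in the same fit. The authors deposited FPKM per gene and library, per the file headers. Each group's m6A peaks were deposited with a fold enrichment ratio and a score, the base 10 logarithm of p, per the file headers. HISAT2, ChIPseeker, StringTie and edgeR were used, per the submitters' processing notes, with no versions or roles. Neither the peak caller nor the genome build is stated. Depth is unknown, so precision comes from the spread between libraries.

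Genes with a mean of at least 0.5 FPKM over the 6 libraries were fitted as log2(FPKM + 0.5) with limma 3.58.1 (R 4.3.3, trended eBayes) using 4 group means, and contrasts were adjusted by Benjamini-Hochberg, with a threshold of 0.05. The 10-library fit leaves out sham library 3 and day 7 library 3. The members and the 46 gene lists were chosen with earlier results of these data known. Lists were described by counts and medians, with no test. Named genes are the genes past the threshold, up to 15 higher and 15 lower of largest size in the 10-library fit with separate groups, a mean of at least 1 FPKM and no predicted name, up to 6 called members per list (or 2 where none was called) and the 5 most abundant. Gap43, Arntl, S100a8, Lars2 and Gm23935 were named after their values were seen. Promoters came from RefSeq GRCm38.p6, 250 bases before to 50 after the start. A strict peak list had a fold of at least 2 and p of at most 1e-05. The fit was tested on simulated data. Alternatives were other pseudocounts, filters, scalings, a replicate block, array weights, robust eBayes and leaving out libraries. Some genes are not reported here by name; list counts and medians include them.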

Additional observations from a re-analysis of the deposited data

Results flagged for a closer look

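The difference from sham on day 14 differed from that on another injured day for 6 genes in the 12-library limma fit, where the shared sham libraries cancel. Against day 3, Anxa10 was higher by a log2 of 1.65 (adjusted p = 0.00908), Ctla2a was higher by 0.90 (adjusted p = 0.0239) and S100a9 was lower, at -1.16 (adjusted p = 0.0499). Against day 7, Ctla2a was higher by 0.78 (adjusted p = 0.0443) and Mt2 by 0.46 (adjusted p = 0.0316), and S100a9 (-1.59, adjusted p = 0.00795), S100a8 (-1.40, adjusted p = 0.0316) and Hmgcs1 (-0.46, adjusted p = 0.0443) were lower. All 8 contrasts also passed in the 10-library fit, with adjusted p from 1.06e-06 for Mt2 to 0.00482 for S100a8. With the replicate block Anxa10 still passed against day 3 (adjusted p = 0.00528), and the other 7 contrasts did not, with adjusted p from 0.0676 for S100a9 against day 7 to 0.261 for S100a9 against day 3. The S100a9 difference from day 3 lies at the threshold. No explanation was tested.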

How the results depend on the processing

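The day 14 count of 8 higher and 0 lower genes was the same under the other scalings and with the replicate block, which gave 8 and 0. Deviations from the group mean of same-numbered libraries had correlations of -0.021, 0.0293 and 0.0475, and those of unlike number -0.0755 to 0.0948. The sham mean includes the outlying sham library 3, so this cannot decide whether the numbers pair the samples. The higher count moved to 3 with a filter of 5 FPKM, 5 with the 6 libraries alone, 102 with 5 libraries, 376 with 10 libraries, 236 with array weights and 24 by an unadjusted p with a log2 of at least 1. Leaving out 1 library gave 5 to 13, the highest without sham library 3. The lower count moved to 1 with no filter, 158 with 5 libraries, 361 with 10 libraries, 249 with array weights and 6 by the unadjusted rule, and leaving out 1 library gave 0 to 8. Against day 3, the 2 higher genes became 1 with the block and 142 with 10 libraries, and the 1 lower gene became 0 with a pseudocount of 1, median-of-ratios scaling, quantile scaling and the block, and 159 with 10 libraries. Against day 7, the 2 higher genes became 1 with a pseudocount of 0.1 and with quantile scaling, 0 with the block and 169 with 10 libraries, and the 3 lower genes became 0 with the block and 249 with 10 libraries. The causes were not tested. Of the 8 genes, Tubb6, Gpr151 and Dbp missed the threshold under some alternatives, and the other 5 passed under every alternative in which they were tested. With the strict peaks the shares of genes with a day 14 peak were 65.0% of all, 65.2% of the higher and 73.1% of the lower genes. These sets differ in median level, and the part of level was not tested here either. Depth is unknown, so the counting error of these values could not be given.

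The sign turned for some genes. Without sham library 3 (10, 5 or 11 libraries) the log2 fold changes turned to Ptgds 0.20, Chat -0.22, Nefl -0.14, Arc -0.26, Glul 0.09, Cx3cl1 -0.16, Cacna2d1 0.21, Cldn5 -0.23, Olig1 -0.27, S100a16 -0.16, Gm23935 -2.97, Ly6c1 -0.29, and with array weights to Ptgds 0.19, Chat -0.21, Nefl -0.13, Arc -0.24, Glul 0.08, Cx3cl1 -0.15, Cacna2d1 0.20, Cldn5 -0.22, Olig1 -0.26, S100a16 -0.15, Gm23935 -2.85, Ly6c1 -0.28. Under median-of-ratios scaling they turned to Nr1d2 -0.01, Agt -0.03, Ly6c1 -0.03, under quantile scaling to Nr1d2 -0.01, Hsp90ab1 0.02, Agt -0.08, Mbp 0.34, Ly6c1 -0.02, and with a rescaled sum to Nr1d2 -0.00, Agt -0.03, Ly6c1 -0.03. Leaving out 1 library at a time gave, from lowest to highest, Ptgds -0.29 to 0.20, Nr1d2 -0.10 to 0.29, Chat -0.22 to 0.35, Nefl -0.14 to 0.16, Arc -0.26 to 0.31, Hsp90ab1 -0.09 to 0.03, Glul -0.30 to 0.09, Calcb -0.51 to 0.15, Cx3cl1 -0.16 to 0.25, Agt -0.05 to 0.10, Cryab -0.31 to 0.05, Lars2 -2.71 to 0.32, Cacna2d1 -0.16 to 0.21, Cldn5 -0.23 to 0.33, Mbp -0.23 to -0.21, Olig1 -0.27 to 0.30, Bst2 -0.79 to 0.08, S100a16 -0.16 to 0.46, Gm23935 -2.97 to 2.51, Mog -0.28 to 0.03, Ly6c1 -0.29 to 0.17. None of these genes passed in the 12-library fit.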
